A study of Mus musculus with 34 samples.

Results

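Loss of p107 in fetal livers that already lacked p130, with Rb1 present, was followed across all genes by setting 6 arrays of p107;p130 double knockout (p107;p130 DKO) livers, also called the double knockout, against 3 arrays of p130 KO livers. These 9 arrays were taken by their genotype labels from the 34 mouse fetal liver arrays of the series. RNA came from whole liver, labelled as embryonic day 14.5 on each array, while the series description spans days 13.5 to 14.5. Both groups lack p130 and carry Rb1, and by label they differ in p107. The labels give no strain, no alleles, no sex, and no word on whether each array stands for a separate animal. The same step was also read without Rb1, in 6 arrays of Rb1;p107;p130 triple knockout (TKO) livers against 9 of Rb1;p130 DKO livers, and with p130 present but Rb1 absent, in 5 arrays of Rb1;p107 DKO livers against 2 of Rb1 KO livers. Values of 1 p107 KO array and 2 wild type arrays were set beside them.

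p107, encoded by Rbl1, and p130, encoded by Rbl2, are relatives of the retinoblastoma protein. These pocket proteins bind E2F transcription factors and hold cell-cycle genes down. p107 and p130 also enter the DREAM complex, which joins the MuvB core to E2F4 or E2F5 with a DP partner at promoters of S-phase and mitotic genes. p130 prevails in resting cells and p107 in cycling cells, and each can stand in for the other. The liver of this age is the main site of red cell formation and is rich in dividing erythroid precursors. S-phase gene promoters often carry E2F sites, and mitotic gene promoters a cell-cycle homology region (CHR), to which MuvB binds.

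E2F motifs were searched as TTTCCCGC, TTTGGCGC, TTTCGCGC and TTTGCCGC, and the CHR as TTTGAA, on both strands of RefSeq promoters (GRCm38.p6), from 250 bases before to 50 after each gene start. A promoter was matched for 10281 of 12719 genes tested. An E2F motif lay in 2.605% of all 27025 promoters, in 4.66% of those of tested genes and in 17 of 39 promoters of an S-phase and E2F target list. The CHR lay in 20.2% of all promoters and in 23 of 32 promoters of a G2 and mitosis (G2/M) list. Promoters of 4 genes are printed to show what these letters look like. Rbl1 was deleted, Mcm6 and Cdk1 stand for S-phase and mitotic genes, and Ccne1 encodes cyclin E1. All but Rbl1 were picked after values were seen. Each is written 5′ to 3′ on the minus strand, at chr2:157204485-157204784 for Rbl1, chr1:128359656-128359955 for Mcm6, chr10:69352863-69353162 for Cdk1 and chr7:38107441-38107740 for Ccne1, with matches to either motif in capitals.
Rbl1: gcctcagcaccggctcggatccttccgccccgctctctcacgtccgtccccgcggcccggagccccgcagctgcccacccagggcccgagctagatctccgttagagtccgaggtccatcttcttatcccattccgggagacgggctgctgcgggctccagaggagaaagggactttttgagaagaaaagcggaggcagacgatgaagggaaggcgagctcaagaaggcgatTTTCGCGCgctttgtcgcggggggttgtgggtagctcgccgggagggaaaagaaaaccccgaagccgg
Mcm6: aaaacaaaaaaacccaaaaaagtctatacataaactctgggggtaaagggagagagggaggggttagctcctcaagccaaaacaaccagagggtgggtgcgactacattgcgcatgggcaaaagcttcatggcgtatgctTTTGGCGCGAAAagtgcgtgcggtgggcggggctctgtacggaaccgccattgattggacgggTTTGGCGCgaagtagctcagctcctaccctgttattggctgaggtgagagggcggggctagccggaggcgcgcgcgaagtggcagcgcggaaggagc
Cdk1: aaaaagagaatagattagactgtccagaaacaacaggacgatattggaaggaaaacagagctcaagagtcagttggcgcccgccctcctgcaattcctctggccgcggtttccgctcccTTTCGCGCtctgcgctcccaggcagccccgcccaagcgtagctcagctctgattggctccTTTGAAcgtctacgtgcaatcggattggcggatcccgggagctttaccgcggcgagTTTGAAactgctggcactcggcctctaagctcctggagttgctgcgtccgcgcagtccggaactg
Ccne1: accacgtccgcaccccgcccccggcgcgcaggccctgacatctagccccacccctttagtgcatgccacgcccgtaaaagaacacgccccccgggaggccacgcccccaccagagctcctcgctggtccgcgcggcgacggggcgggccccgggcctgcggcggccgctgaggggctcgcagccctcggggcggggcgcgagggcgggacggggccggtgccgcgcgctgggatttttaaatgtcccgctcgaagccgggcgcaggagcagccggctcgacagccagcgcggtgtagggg
The Rbl1 window held 1 E2F motif and no CHR, the Mcm6 window 3 E2F motifs, which run together where they overlap, and the Cdk1 window 1 E2F motif and 2 CHR motifs. Neither motif occurred in the Ccne1 window, nor in the windows of Serinc3 and Rdh5, genes described below whose promoters are not printed. A match is a string of letters and not a measured binding site.

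Signals are linear array intensities, and differences are on the log2(signal + 32) scale unless stated. The median signal over probe sets with 1 gene symbol was 115 to 142 on p107;p130 DKO arrays and 108 to 150.2 on p130 KO arrays. Across genes, arrays correlated at r = 0.968 to 0.983 within the p107;p130 DKO, 0.956 to 0.967 within the p130 KO and 0.960 to 0.980 between the groups. Both groups carried strong hepatocyte and red cell signal, as their label has it, with Apoa2 at 15863 to 21918 in p107;p130 DKO and 18181, 24002 and 23599.6 in p130 KO. Differences between probe sets of the same gene split all 34 arrays into 3 array groups that no label records. Of the p107;p130 DKO arrays, replicates 1 to 3 lay in array group 1, replicate 4 in group 3 and replicates 5 and 6 in group 2. Of the p130 KO arrays, replicates 1 and 2 lay in group 1 and replicate 3 in group 3. On the first principal component of the 9 arrays (27.1% of the variance), array group 1 lay on one side and groups 2 and 3 on the other. Xist, the RNA that silences an X chromosome in females, gave 8829 on p107;p130 DKO replicate 3 and 94.9 to 222 on the other 5, against 5845, 12343 and 3914 in p130 KO. The Y-linked Eif2s3y gave 7.95 on p107;p130 DKO replicate 3 and 769 to 1619 on the other 5, against 16.2, 6.64 and 23.0 in p130 KO. All 3 p130 KO arrays thus had the female pattern, against 1 of 6 p107;p130 DKO arrays, and the part of sex in the results is given as values with sex as a covariate.

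The deleted gene was lost. Rbl1 gave 43.9, 68.9 and 118 as the lowest, median and highest signal in p107;p130 DKO, against 1256, 1345 and 2004 in p130 KO. The groups were far apart, with no overlap. Rbl1 fell by 3.90 ± 0.24 (SE), a 14.9-fold lower value on this scale (limma, adjusted p = 3.9e-13), and it was called in all 23 settings tried, with log2 differences from -4.41 to -1.82, the smallest in size with the mean of its probe sets. Its next brightest probe set lay at 4.94 to 47.4 in p107;p130 DKO, against 173, 223 and 398 in p130 KO, and another at 6.94 to 41.0 in p107;p130 DKO, against 80.5, 97.6 and 46.1 in p130 KO. The dimmest, at 2.51 to 46.1 in p107;p130 DKO, against 28.02, 27.0 and 46.3 in p130 KO, overlapped.

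The other pocket protein genes were not called. Rbl2, deleted by label in both groups, gave 105, 203 and 249 in p107;p130 DKO, against 221, 236 and 129.6 in p130 KO, with overlap (-0.084 ± 0.23, adjusted p = 0.9994). Wild type livers had 349.9 and 340.2 on that probe set. Rb1 gave 5208, 6332 and 8035 in p107;p130 DKO, against 6101, 5810.5 and 8204 in p130 KO, also with overlap (-0.079 ± 0.21, adjusted p = 0.9994). The 95% interval of the Rb1 difference ran from -0.51 to 0.35.

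**Figure D1:**
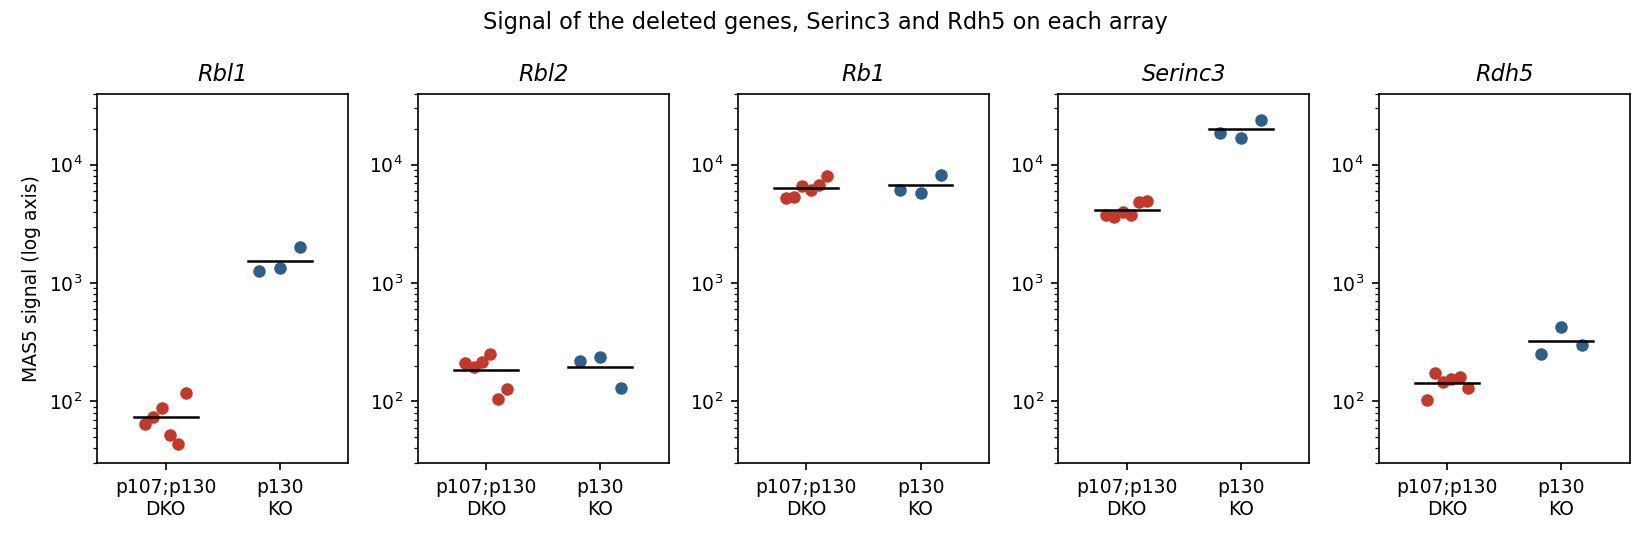
Signal (log axis) of Rbl1, Rbl2, Rb1, Serinc3 and Rdh5 on each of 6 p107;p130 DKO arrays (red, left) and 3 p130 KO arrays (blue, right); lines are group means. Rbl1, Serinc3 and Rdh5 are lower on every p107;p130 DKO array than on any p130 KO array, and Rbl2 and Rb1 overlap.

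Beyond Rbl1 few genes passed the test. Of 12719 genes, 3 were called at an adjusted p under 0.05 (0.0236%), Rbl1, Serinc3 and Rdh5, and all 3 fell. At an unadjusted p under 0.05 there were 564 genes (4.43%), 300 of them higher in p107;p130 DKO. The median log2 difference over all genes was 0.0035, and the lowest adjusted p among uncalled genes was 0.0866. Groups did not overlap at 134 genes that were higher in p107;p130 DKO (1.05%) and at 135 that were lower (1.06%). The 95% interval of the difference lay within 2-fold either way for 87.4% of genes, with a median half-width of 0.43. Larger differences than that half-width also went uncalled, among them that of Prr15l at -0.98 ± 0.26. With sex as a covariate, Rbl1 was the 1 gene called (0.00786%).

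**Figure D2:**
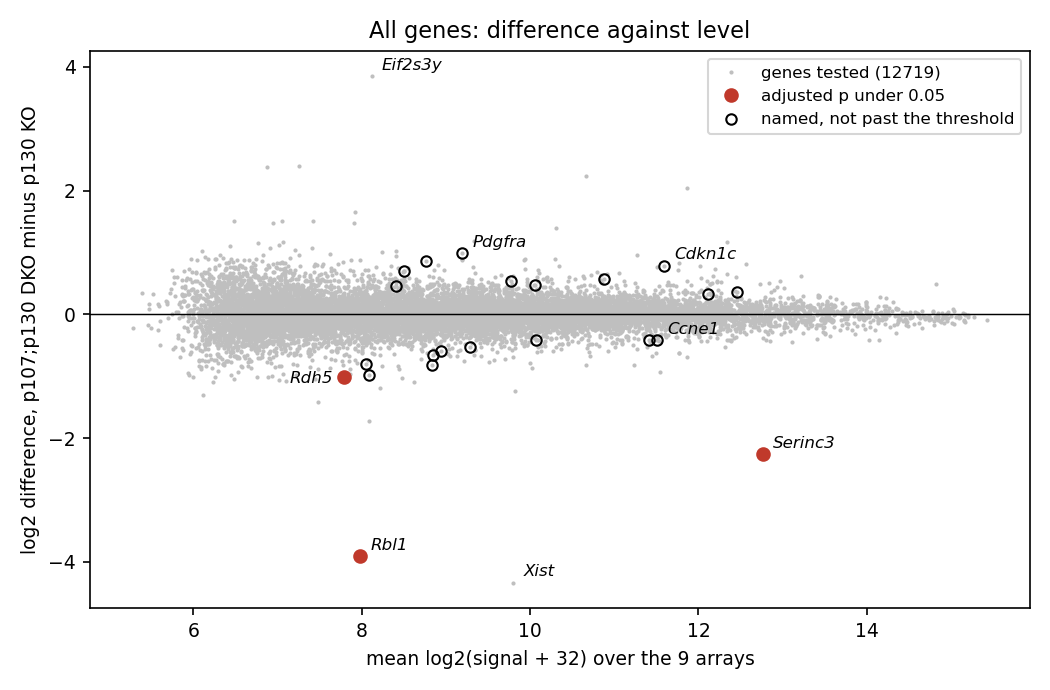
Log2 difference, p107;p130 DKO minus p130 KO, against mean log2(signal + 32) over the 9 arrays for 12719 genes, with the 3 called genes in red and other named genes as open circles. The 3 red points lie below 0, and the sex-linked Xist and Eif2s3y lie far from 0 in opposite directions without being called.

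Serinc3, which encodes a serine incorporator membrane protein known in human cells to restrict retroviral infectivity, was the second gene called. It gave 3619, 3856 and 4931 in p107;p130 DKO, against 18666, 16962 and 24040.1 in p130 KO, with no overlap. It fell by 2.25 ± 0.37, or 4.77-fold (adjusted p = 0.00376). All 6 Serinc3 probe sets were lower without overlap, with ratios of mean signal from 0.0301 to 0.247. The call held in 20 of 23 settings and was lost with sex as a covariate (adjusted p = 0.0547), with sex and array group together (0.0693) and without p130 KO replicate 3 (0.142). Its size moved little, from -2.55 to -2.11 over those settings. Among arrays with Xist alone, where replicate 3 was the only p107;p130 DKO array, it was -2.30.

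Serinc3 was also lower after p107 loss in livers without Rb1. Of 12719 genes, 3 were called between TKO and Rb1;p130 DKO livers (0.0236%), Rbl1, Serinc3 and Ccne1, and all 3 fell. Serinc3 gave 3537, 4545 and 17091 in TKO, against 4735, 20772 and 24249 in Rb1;p130 DKO, where 1 array of each group lay near the other group's level. It fell by 1.70 ± 0.27 (adjusted p = 0.00304), a call lost in 2 of 29 settings (adjusted p = 0.0587 and 0.273). In Rb1;p107 DKO livers it gave 3746, 4943 and 5610.1, against 13918 and 21642 in Rb1 KO (-1.85 ± 0.43, adjusted p = 0.378), a comparison in which Rbl1 was the 1 gene called (0.00786%). The p107 KO array gave 4032, against 15313 and 19977 in wild type.

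Over all 34 arrays, Serinc3 was below 10000 on 17 of 18 arrays labelled as lacking p107 and above 10000 on 15 of 16 with p107. The exceptions were TKO replicate 1, at 17091, and Rb1;p130 DKO replicate 3, at 4735. On Rbl1 these arrays had 98.5 and 1739, as their labels have it, so Serinc3 and Rbl1 did not go together on them.

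Serinc3 lies on chromosome 2, as Rbl1 does, 6.42 Mb away in the RefSeq annotation. Tested genes within 5 Mb of Rbl1 had a median log2 difference of -0.016, with none called. Among them, 2 did not overlap, both higher in p107;p130 DKO, a share no larger than the 2.11% of all genes. The 30 tested genes within 1 Mb of Serinc3, looked at after its value was seen, had a median of -0.030, with 17 below 0 and none called. Of these 30, 3 did not overlap, beside 2.11% of all genes, with Pkig and Mybl2 lower and Gm16316 higher. As these genes were picked by place around a called gene, the count is a description.

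Pkig, which encodes an inhibitor of protein kinase A, gave 1653, 1989 and 2331 in p107;p130 DKO, against 2978, 2338 and 6188 in p130 KO (-0.83 ± 0.29, adjusted p = 0.9994). Its second probe set was further apart, at 553 to 760.3 in p107;p130 DKO, against 1798, 1537 and 2006 in p130 KO. On that probe set TKO replicate 1 gave 1237 and the other 5 TKO arrays 488 to 858, while Rb1;p130 DKO replicate 3 gave 681 and the other 8 arrays 1629 to 2880.4. The arrays that departed from their group for Serinc3 thus did so for Pkig. Gm16316, whose role is not known, gave 265, 324 and 386 in p107;p130 DKO, against 134, 217 and 2.11 in p130 KO (1.66 ± 0.55, adjusted p = 0.970). Sdc4, encoding the surface proteoglycan syndecan 4, gave 1148, 1521 and 2926 in p107;p130 DKO, against 729.9, 1791 and 179 in p130 KO, with overlap (adjusted p = 0.9994). On these probe sets p130 KO replicate 3 was the highest of the 9 arrays for Pkig and the lowest for Gm16316 and Sdc4. The dimmer Sdc4 probe set went the other way, at 51.6 to 244 in p107;p130 DKO, against 168, 210.4 and 384 in p130 KO, with replicate 3 the highest of the 9, so the direction of Sdc4 is uncertain. On its brighter probe set Sdc4 was 123 to 237 on 5 of 9 Rb1;p130 DKO arrays and 965 to 1402 on the other 4. With array group as a block, 17 of 12719 genes were called between TKO and Rb1;p130 DKO, against 3 without the block. Of the 30 tested genes within 1 Mb of Serinc3, 4 were among them, Pkig, Gm16316, Sdc4 and Ttpal. As this window was drawn around a called gene after values were seen, that count too is a description.

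Rdh5, which encodes a retinol dehydrogenase, was the third gene called. Signal was low, at 103, 149 and 174 in p107;p130 DKO, against 250.05, 427 and 302 in p130 KO, and the groups did not overlap. It fell by 1.01 ± 0.19, or 2.01-fold (adjusted p = 0.0243). Each p130 KO array was above every array of the other genotypes, wild type having 118 and 196 and the p107 KO array 111. The call held in 12 of 23 settings, with adjusted p from 0.0527 to 0.523 in the rest and 0.418 with sex as a covariate. Rdh5 differed by -0.20 ± 0.14 between TKO and Rb1;p130 DKO (adjusted p = 0.901) and by -0.26 ± 0.22 between Rb1;p107 DKO and Rb1 KO (adjusted p = 0.647).

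Whether the p107 step differed between livers with and without Rb1 was tested as an interaction, the difference with Rb1 minus that without it. No gene was called by limma (0%), and 211 had an unadjusted p under 0.05. The term was -0.80 ± 0.23 for Rdh5 (unadjusted p = 0.00157, adjusted p = 0.9995 by limma), -0.55 ± 0.46 for Serinc3 and 0.22 ± 0.30 for Rbl1. A difference between the backgrounds was not shown for any gene in this test.

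Ccne1 encodes cyclin E1, which activates Cdk2 at entry into S phase and is a classical E2F target. It gave 2298, 2640.0 and 3029.9 in p107;p130 DKO, against 3206, 3198 and 4108 in p130 KO, with no overlap. The log2 difference of -0.41 ± 0.12 did not pass over all genes (unadjusted p = 0.00139, adjusted p = 0.884 by limma). TKO livers gave 2426, 2666 and 2992, against 3329, 3605 and 4149.9 in Rb1;p130 DKO, again with no overlap. There Ccne1 fell by 0.46 ± 0.0876 (adjusted p = 0.0368), a call held in 16 of 29 settings, with adjusted p from 0.0538 to 0.586 in the rest. Rb1;p107 DKO livers gave 2452, 2980.1 and 3085, against 4192 and 2981 in Rb1 KO (-0.29 ± 0.14, adjusted p = 0.408), which overlapped. The p107 KO array gave 2756, against 3635 and 3027 in wild type. A second Ccne1 probe set overlapped, at 1456 to 2786 in p107;p130 DKO, against 1633, 2529 and 2833 in p130 KO. The 3 comparisons share no arrays, but share the spread estimated over all 34.

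Cdkn1c, which encodes the Cdk inhibitor p57, lay the other way. It gave 2797, 3615 and 4709.6 in p107;p130 DKO, against 2517, 2295 and 1622 in p130 KO, with no overlap (0.79 ± 0.25, adjusted p = 0.970). TKO livers gave 2729, 4466 and 4966, against 1852, 2065 and 5186 in Rb1;p130 DKO (0.72 ± 0.18, adjusted p = 0.257). The overlap came from Rb1;p130 DKO replicate 9, without which the difference was 0.86 and Cdkn1c was called (adjusted p = 0.0122). It was called in 5 of 29 settings of that comparison, with adjusted p from 0.171 to 0.724 in the rest. Rb1;p107 DKO livers gave 2295, 3208 and 4119, against 3043 and 2185 in Rb1 KO (0.25 ± 0.29), and the p107 KO array 5406, against 2454 and 2894 in wild type.

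**Figure D3:**
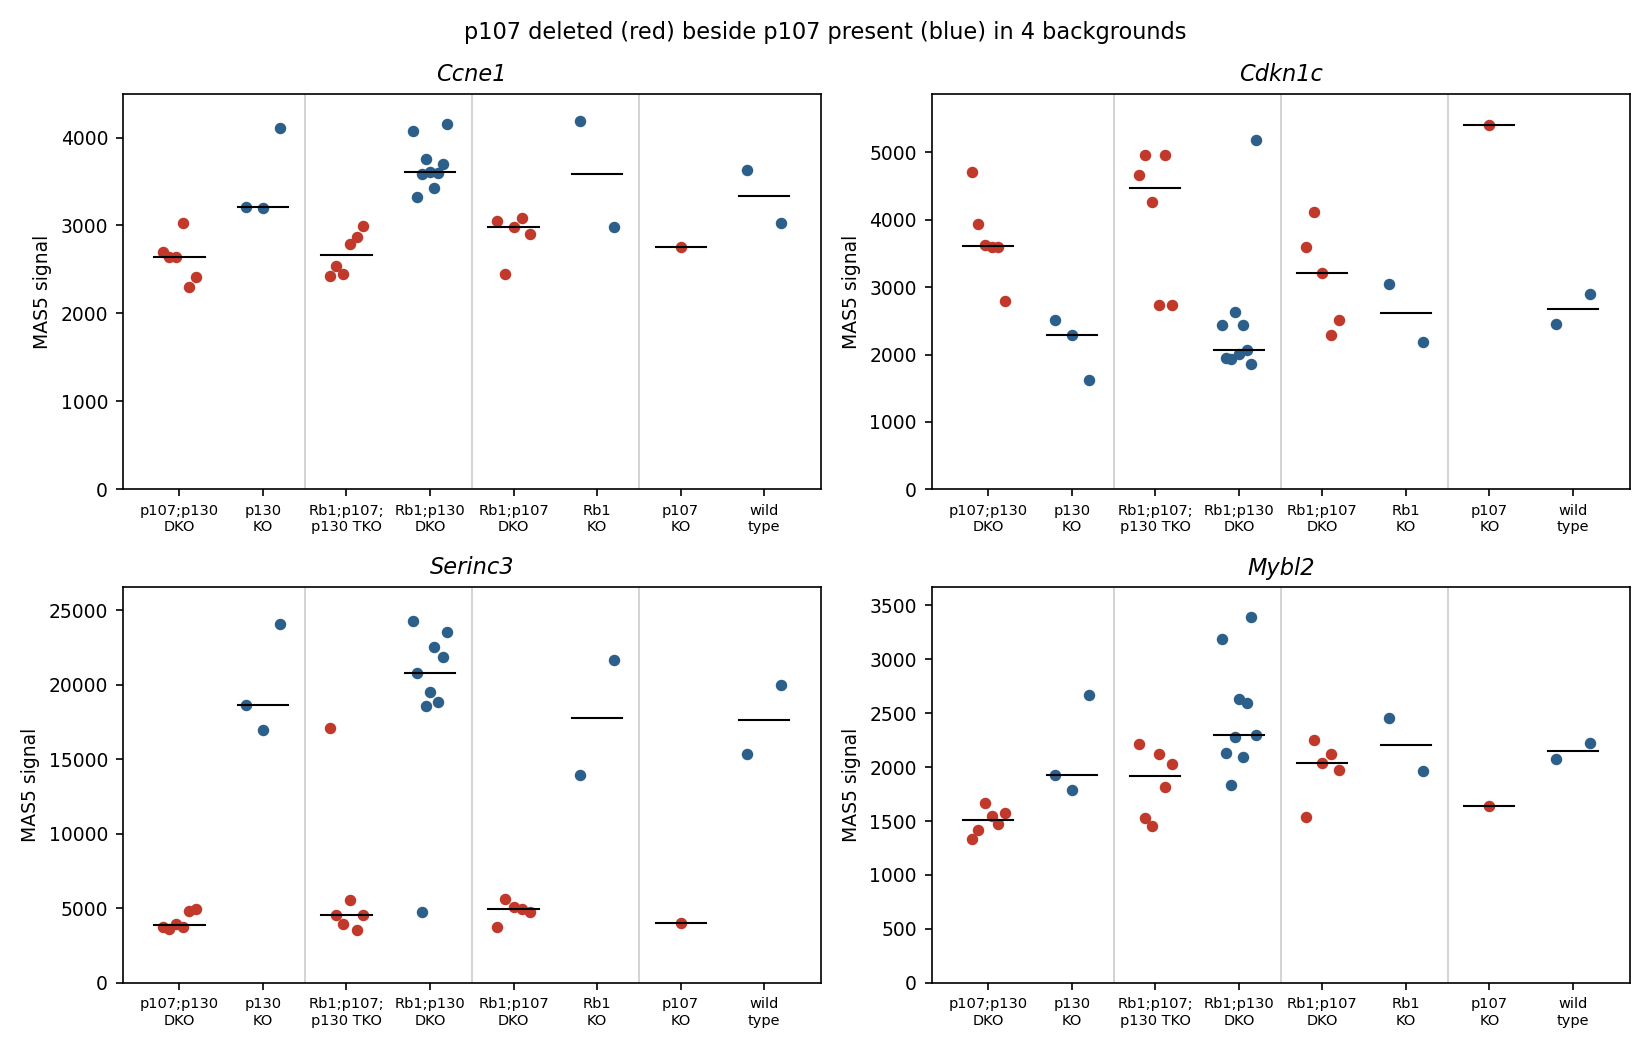
Signal of Ccne1, Cdkn1c, Serinc3 and Mybl2 on each array of 8 genotypes in pairs, p107 deleted (red) left of p107 present (blue); lines are medians. Serinc3 shows separate levels with TKO replicate 1 and Rb1;p130 DKO replicate 3 on the other side, and Ccne1 does not overlap in the pairs p107;p130 DKO with p130 KO and TKO with Rb1;p130 DKO.

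Of 13 pocket protein and E2F family genes, 1 was called, Rbl1, with a family median of -0.084. The activators E2f1, E2f2 and E2f3 differed by -0.100 ± 0.15, -0.17 ± 0.19 and 0.043 ± 0.15. E2f4 and E2f5, partners of p107 and p130, differed by -0.22 ± 0.28 and -0.77 ± 0.43. E2f5, with the widest interval of the family, gave 455, 592 and 726 in the double knockout, against 624, 1606 and 1017 in p130 KO, with overlap. E2f6, E2f7 and E2f8, which repress without pocket proteins, differed by -0.0084 ± 0.17, 0.0052 ± 0.17 and -0.072 ± 0.18. The DP partners Tfdp1 and Tfdp2 differed by -0.0078 ± 0.097 and -0.21 ± 0.20. Signs of E2f3, E2f6, E2f7, E2f8, Tfdp1, Rbl2 and Rb1 turned under some settings.

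Of 8 MuvB, B-Myb and Foxm1 genes none was called (median -0.039). Mybl2 encodes B-Myb, which joins MuvB as cells pass through S phase. It gave 1333, 1508 and 1669 in the double knockout, against 1922, 1791 and 2666 in p130 KO, and its second probe set 318 to 433 in the double knockout, against 635, 602 and 538 in p130 KO, neither overlapping. Its difference of -0.48 ± 0.17 was not called (adjusted p = 0.9994), nor was that of -0.41 ± 0.12 between TKO and Rb1;p130 DKO in any of 29 settings. Mybl2 lies 5.85 Mb from Rbl1 and within 1 Mb of Serinc3. Lin37 of the MuvB core differed by -0.28 ± 0.15, the kinase Dyrk1a, which promotes DREAM assembly, by 0.26 ± 0.20, and the mitotic activator Foxm1 by 0.25 ± 0.23.

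S-phase and mitotic genes showed no called member. Of 47 S-phase and E2F target genes, 27 were above 0, the median was 0.027, and all 47 intervals lay within 2-fold. Apart from Mybl2, the smallest p belonged to the replication factor gene Gins1 at 0.24 ± 0.15, the chromatin remodeller Hells at 0.34 ± 0.22 and Pola1 of DNA polymerase alpha at 0.27 ± 0.23. Mcm6, a subunit of the replicative helicase with the 3 E2F motifs printed above, gave 8316, 11852 and 14577 in the double knockout, against 13487, 6616 and 16155 in p130 KO (0.070 ± 0.22), with full overlap. The S-phase list's median was 0.035 between TKO and Rb1;p130 DKO, with 31 of 47 above 0, and 0.20 between Rb1;p107 DKO and Rb1 KO, with 37 of 47. Of 37 G2/M genes, 22 were above 0, the median was 0.039 and 36 intervals lay within 2-fold. The G2/M median was 0.12 between TKO and Rb1;p130 DKO, with 30 of 37 above 0, and 0.24 between Rb1;p107 DKO and Rb1 KO, with 31 of 37. Cdk1, the mitotic kinase, gave 6365, 7147 and 7446 in the double knockout, against 7205, 6424 and 6133 in p130 KO (0.10 ± 0.091), with overlap. The checkpoint kinase gene Ttk differed by 0.35 ± 0.21, the cytokinesis gene Anln by 0.27 ± 0.17, the spindle gene Prc1 by -0.13 ± 0.11 and the checkpoint gene Mad2l1 by 0.23 ± 0.19, each with an adjusted p of 0.9994 (limma).

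Grouped by promoter letters, genes had medians near 0. The 479 tested genes with an E2F motif had a median of 0.00039, 240 of them above 0, and 1 was called, Rbl1. Of these, 4 did not overlap in the higher direction (0.835%, beside 1.05% of all genes) and 3 in the lower (0.626%, beside 1.06%). The 1492 genes with a CHR had a median of 0.0021, none called. Of these, 13 did not overlap in the higher direction (0.871%) and 11 in the lower (0.737%), both shares below those of all genes. Of 17 G1 and S cyclins, kinases and inhibitors none was called. Beside Ccne1 and Cdkn1c, the smallest p belonged to the inhibitor genes Cdkn2d at -0.21 ± 0.17 and Cdkn1b, encoding p27, at -0.24 ± 0.22.

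**Figure D4:**
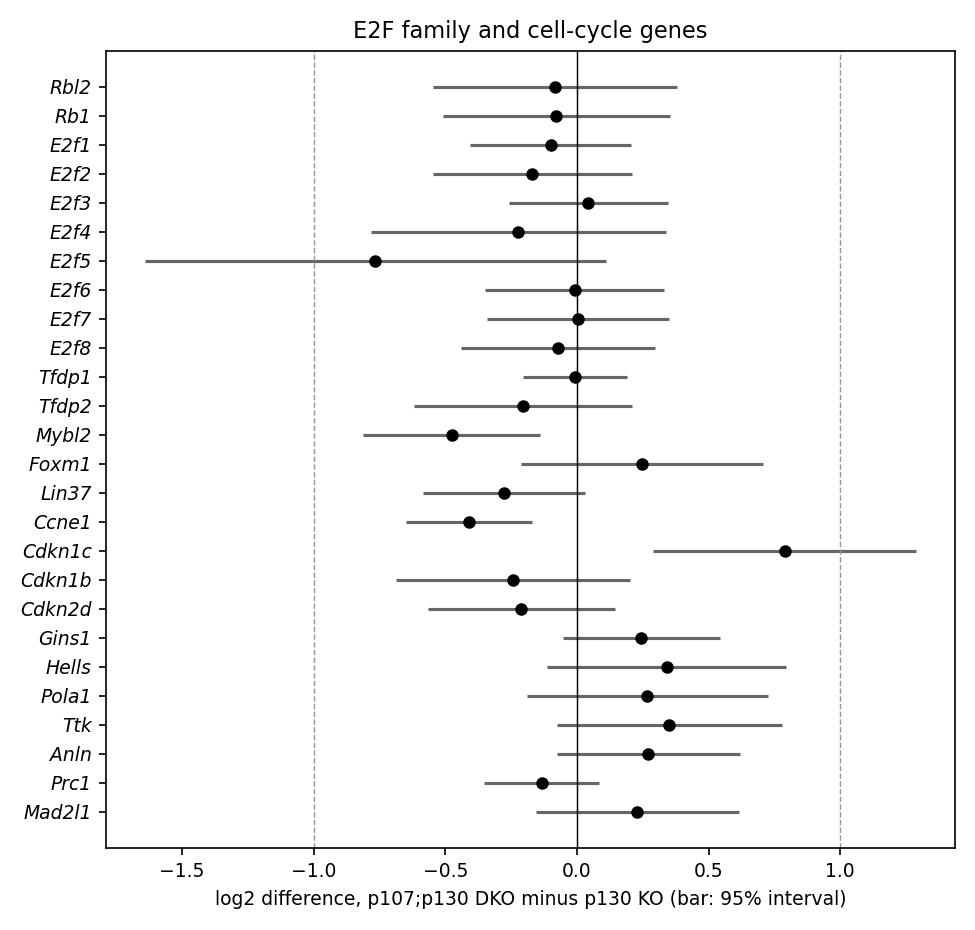
Log2 difference, p107;p130 DKO minus p130 KO (points), with its 95% interval (bars), for pocket protein, E2F family and cell-cycle genes; dashed lines mark 2-fold. The intervals of Ccne1, Mybl2 and Cdkn1c exclude 0 though none was called over all genes, and E2f5 has a wide interval.

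As few genes were called, others were named by rank, as values and not as calls. They were genes without overlap, at a mean log2 level of at least 8, with the smallest unadjusted p. Higher in the double knockout were Ptprf, Tsc22d2, Gstcd, Gas1, Cdkn1c, Pdgfra, Ppp4r2, Ctnnal1, Fbln1 and Cnn3 (limma, unadjusted p from 0.000718 to 0.00694). Lower were Prr15l, Btnl10, Acox2, Tspan32, Mbl1, Ccne1, Atp7b, Tor4a and Slc39a14 (unadjusted p from 0.000818 to 0.00465). Between TKO and Rb1;p130 DKO, 10 of the 10 higher genes and 1 of the 9 lower genes were above 0. Between Rb1;p107 DKO and Rb1 KO these counts were 8 of 10 and 1 of 9.

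Some of the higher genes are known from mesenchymal cells. Pdgfra, a platelet-derived growth factor receptor, gave 495, 735 and 919 in the double knockout, against 284, 495 and 276 in p130 KO (0.99 ± 0.32, adjusted p = 0.970). Gas1, a surface protein gene first found in growth-arrested fibroblasts, gave 403, 509 and 582 in the double knockout, against 264, 309 and 213 in p130 KO (0.86 ± 0.26). Fbln1, encoding the matrix protein fibulin 1, gave 317, 380.1 and 497 in the double knockout, against 145, 299.6 and 271 in p130 KO (0.70 ± 0.24). None of these overlapped between the groups, which the rule that named them required. The p107 KO array gave 1458 for Pdgfra, against 458 and 464 in wild type, and 1606 for Gas1, against 251 and 413 in wild type. Between TKO and Rb1;p130 DKO, Pdgfra, Gas1 and Fbln1 differed by 0.40 ± 0.24, 0.25 ± 0.19 and 0.64 ± 0.18. Between Rb1;p107 DKO and Rb1 KO they differed by 0.20 ± 0.38, -0.32 ± 0.31 and -0.034 ± 0.29. Gas1 and Fbln1 were thus below 0 there. Ptprf, a receptor phosphatase gene with the smallest p among the higher genes, gave 1773, 2138 and 2530.3 in the double knockout, against 1418, 1672 and 1178 in p130 KO (0.58 ± 0.16, adjusted p = 0.884).

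The stellate and mesenchymal list, which includes Pdgfra, had 16 of 19 members above 0 and a median of 0.24, none called. Over all genes 50.8% were above 0. Pdgfrb, a receptor of pericytes and stellate cells, gave 516, 754 and 989.7 in the double knockout, against 420.3, 548 and 383 in p130 KO, with overlap (0.67 ± 0.22, adjusted p = 0.970). Igfbp3 differed by 0.62 ± 0.21 and the matrix gene Lum by 0.61 ± 0.34. The summed signal of the list was 26491 to 37230.1 in the double knockout, against 20995, 39145 and 25468 in p130 KO, so p130 KO replicate 2 lay above every double knockout array. The median was 0.14 within array group 1 and 0.44 with sex as a covariate. Within group 3, double knockout replicate 4 against p130 KO replicate 3, it was 0.61. It was 0.24 between TKO and Rb1;p130 DKO, with 16 of 19 above 0, and -0.21 between Rb1;p107 DKO and Rb1 KO, with 5 of 19. In whole liver, a change in the number of cells of a type and a change in RNA per cell cannot be told apart.

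Of 24 hepatocyte and hepatoblast genes, 20 were below 0, with a median of -0.17 and none called. The smallest p of the list belonged to a gene on the other side, Igfbp1, encoding a secreted binding protein of insulin-like growth factors, which gave 3644, 4559 and 6913 in the double knockout, against 2474, 5503 and 2296 in p130 KO, with overlap (0.58 ± 0.32, adjusted p = 0.9994). The list median was -0.060 with sex as a covariate and -0.29 within array group 1. Within group 3, double knockout replicate 4 against p130 KO replicate 3, it was 0.29, where the sign turned. It was 0.026 between TKO and Rb1;p130 DKO, with 17 of 24 above 0, and 0.0056 between Rb1;p107 DKO and Rb1 KO, with 12 of 24. The list's summed signal was 194624 to 259236 in the double knockout, against 214708, 309316 and 253238 in p130 KO. Among the lower genes named by rank, 3 that are not on the list are known from liver. Mbl1, a mannose-binding lectin gene, gave 264, 349 and 439 in the double knockout, against 461, 891 and 626 in p130 KO (-0.82 ± 0.23). Acox2, a peroxisomal oxidase gene of bile acid synthesis, gave 139, 196 and 238 in the double knockout, against 258, 463 and 363 in p130 KO (-0.80 ± 0.22), and the copper transporter gene Atp7b gave 883, 932 and 1062 in the double knockout, against 1212, 1275 and 1342 in p130 KO (-0.42 ± 0.13). The groups did not overlap for any of the 3, which the rule that named them required.

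Of 26 red cell membrane and late maturation genes, 23 were below 0, with a median of -0.15 and none called. Kel, a blood group glycoprotein gene, gave 7378, 10046 and 11564 in the double knockout, against 10826, 14543 and 13846 in p130 KO, with overlap (-0.39 ± 0.14, limma, unadjusted p = 0.00772, adjusted p = 0.9994). The water channel gene Aqp1 gave 3106, 4360.0 and 6948 in the double knockout, against 4072, 7843 and 8319.6 in p130 KO (-0.52 ± 0.26). With sex as a covariate the median was -0.064, and with array group as a block -0.27. It was -0.062 between TKO and Rb1;p130 DKO, with 8 of 26 above 0, and 0.13 between Rb1;p107 DKO and Rb1 KO, with 17 of 26. Of 24 red cell transcription factor and erythropoietin signalling genes none was called, and all 24 intervals lay within 2-fold. Epor, the erythropoietin receptor gene, differed by -0.38 ± 0.19. Of 18 heme synthesis and iron genes, 16 were below 0 (median -0.13), with the heme enzyme gene Ppox at -0.32 ± 0.15. With sex as a covariate that median was -0.024. It was -0.013 between TKO and Rb1;p130 DKO, with 9 of 18 above 0, and 0.10 between Rb1;p107 DKO and Rb1 KO, with 11 of 18. Of 10 symbols on the globin list 5 were tested, and all 5 were below 0 (median -0.14). The lowest, Hba-a2 at -0.34 ± 0.22, had low signal, at 109 to 203 in the double knockout, against 235, 221 and 134 in p130 KO. Embryonic Hbb-y, at 33299.6, 35579 and 44592 in the double knockout, against 38445, 33054 and 43034 in p130 KO, overlapped. In the other comparisons of p107 loss the globin median lay above 0, at 0.22 between TKO and Rb1;p130 DKO, with 4 of 5 above 0, and 0.39 between Rb1;p107 DKO and Rb1 KO, with 3 of 5.

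**Figure D5:**
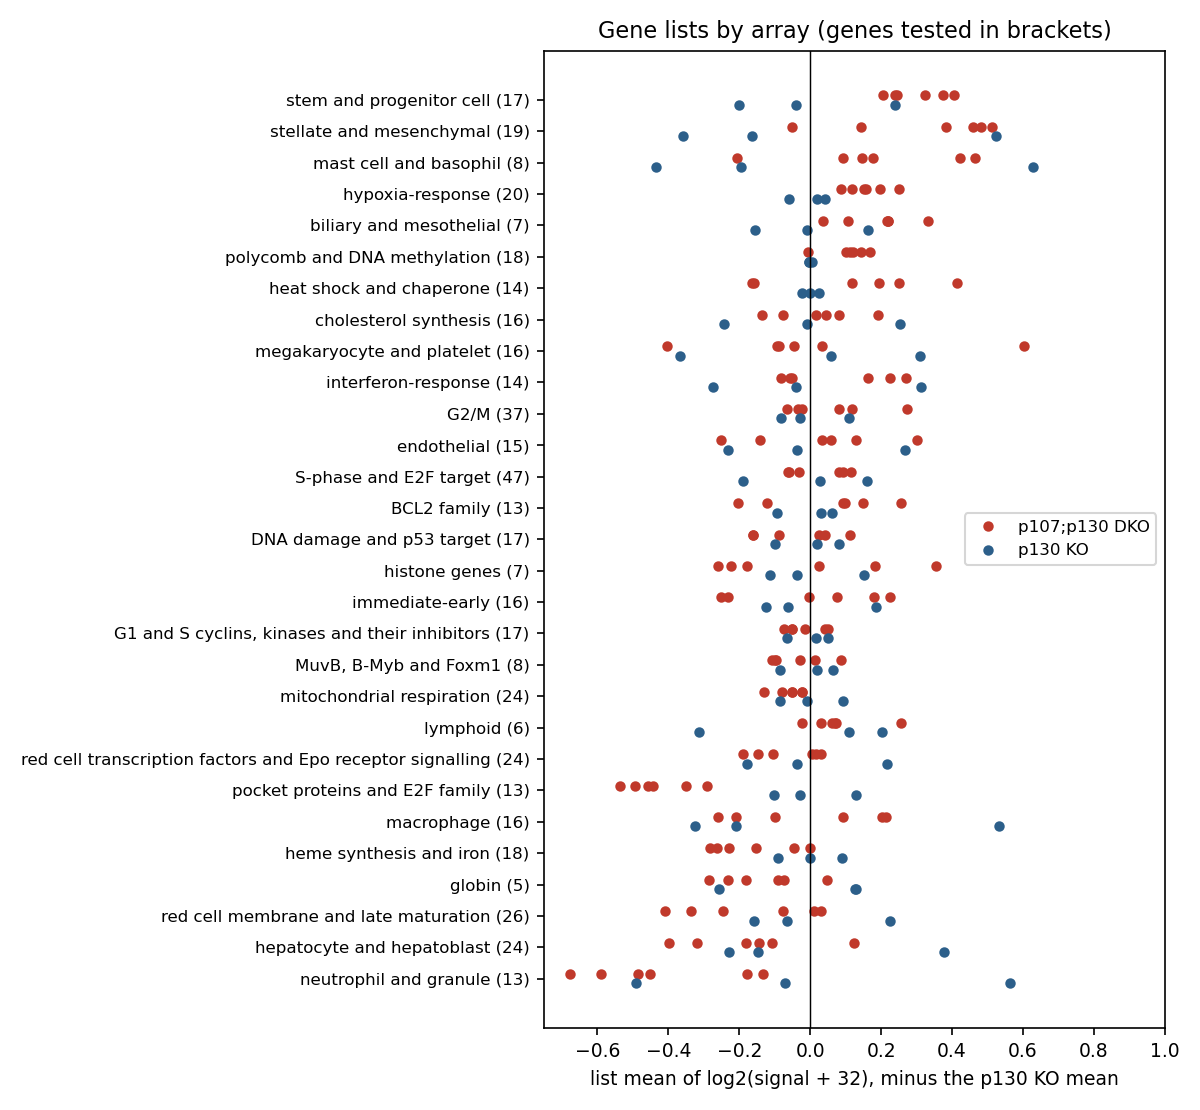
Mean log2(signal + 32) of 29 gene lists on each array, minus the list's p130 KO mean, for 6 p107;p130 DKO arrays (red) and 3 p130 KO arrays (blue). The groups do not overlap for the pocket protein list, which includes Rbl1, and for the hypoxia-response list, and they overlap for the others drawn.

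The neutrophil and granule list had the lowest median of 30 lists, -0.44, with 13 of 13 members below 0 and none called. Ltf, the granule protein lactoferrin, gave 1785, 2235 and 2502 in the double knockout, against 2662, 3736 and 3200.3 in p130 KO, without overlap (-0.56 ± 0.30, adjusted p = 0.9994). Camp differed by -0.63 ± 0.38, Ngp by -0.44 ± 0.31 and Prg2, an eosinophil granule gene, by -0.41 ± 0.30. The summed signal was 61115 to 76075 in the double knockout, against 66761, 121496 and 85414 in p130 KO, highest on p130 KO replicate 2, and the p130 KO array lowest of its group lay among the double knockout arrays. The median was -0.41 within array group 1 and -0.61 with sex as a covariate. Within group 3, double knockout replicate 4 against p130 KO replicate 3, it was -0.41. Among arrays with Xist, where replicate 3 was the only double knockout array, it was -0.21. Between TKO and Rb1;p130 DKO it was -0.25, with 0 of 13 above 0, and between Rb1;p107 DKO and Rb1 KO -0.016.

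The stem and progenitor cell list had the highest median, 0.30, with 15 of 17 members above 0 and none called. Hoxa9, a homeobox gene of blood stem cells, gave 112, 150.2 and 215 in the double knockout, against 80.2, 159.9 and 25.0 in p130 KO, with overlap (0.78 ± 0.27, limma, unadjusted p = 0.00619, adjusted p = 0.9994). Its cofactor gene Meis1 gave 152, 257 and 353 in the double knockout, against 142, 238 and 122 in p130 KO (0.59 ± 0.22), and Angpt1, encoding angiopoietin 1, differed by 0.66 ± 0.31. Summed signal was 5533 to 6583 in the double knockout, against 4909, 5883 and 4387 in p130 KO, and p130 KO replicate 2 overlapped the double knockout. The median was 0.33 with sex as a covariate, 0.24 with array group as a block and 0.16 within array group 1. Within group 3, double knockout replicate 4 against p130 KO replicate 3, it was 0.50. Between TKO and Rb1;p130 DKO it was 0.14, with 14 of 17 above 0, and between Rb1;p107 DKO and Rb1 KO 0.35, with 13 of 17.

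Hypoxia-response genes had a median of 0.16, with 13 of 20 above 0 and none called. Their mean log2 level was 10.28 to 10.44 in the double knockout and 10.13 to 10.23 in p130 KO, without overlap. Egln3, encoding an oxygen-sensing hydroxylase, gave 217, 238 and 294 in the double knockout, against 167, 152 and 161 in p130 KO (0.55 ± 0.24), and the hexokinase gene Hk2 gave 896, 981 and 1051 in the double knockout, against 874, 658 and 808 in p130 KO (0.32 ± 0.18). Neither overlapped and neither was called (adjusted p = 0.9994 each). They were the 2 of 20 genes higher without overlap, beside 1.05% of all genes. Between TKO and Rb1;p130 DKO the list's median was 0.018, with 13 of 20 above 0, and between Rb1;p107 DKO and Rb1 KO 0.14, with 14 of 20.

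Over the 30 lists, medians ran from -0.44 to 0.30, and 26 lay within 0.2 of 0. Macrophage genes had a median of -0.087, endothelial genes 0.033, megakaryocyte and platelet genes 0.058, lymphoid genes -0.063, mast cell and basophil genes 0.22, and biliary and mesothelial genes 0.16. DNA damage and p53 target genes stood at 0.011, BCL2 family genes at 0.020, interferon-response genes at 0.042 and mitochondrial respiration genes at -0.053. Immediate-early genes stood at -0.019, heat shock and chaperone genes at 0.11, histone genes at 0.0065, cholesterol synthesis genes at 0.087, and polycomb and DNA methylation genes at 0.14. No member of these lists was called. Il7r, the interleukin 7 receptor gene of lymphoid progenitors, gave 101, 139 and 156 in the double knockout, against 86.9, 67.6 and 59.3 in p130 KO, without overlap (0.69 ± 0.25). It was the 1 of 6 lymphoid genes higher without overlap, beside 1.05% of all genes, and 4 of the 6 were below 0. Plvap, a gene of fenestrated endothelium, gave 552, 685 and 839 in the double knockout, against 856, 1044 and 1124 in p130 KO, also without overlap (-0.54 ± 0.21). It was the 1 of 15 endothelial genes lower without overlap, beside 1.06% of all genes, and 8 of the 15 were above 0. The interferon-induced Bst2 gave 248, 282 and 394 in the double knockout, against 308, 422 and 27.3 in p130 KO, where p130 KO replicate 3 was low and the groups overlapped. Whether differences in cell makeup between the arrays had a part in these values was not tested.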

How the data were processed

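Per the labels, RNA of whole fetal livers was hybridised to 1-colour Affymetrix arrays. The authors deposited MAS5 signals, a linear intensity per probe set, made with GCOS 1.4 per the submitters' processing notes. Of 45037 probe sets, 34945 had 1 gene symbol in the platform annotation, 932 several (left out) and 9160 none. Each array was set to a 2% trimmed mean of 500 and taken as log2(signal + 32), which understates changes of low genes. The brightest probe set stood for each of 18193 genes, and 12719 with a signal of 100 on 2 or more arrays were tested. limma 3.58.1 in R 4.3.3 (eBayes with trend, two-sided, Benjamini-Hochberg over all tested genes, threshold 0.05) fitted 1 mean per genotype over 34 arrays. Every adjusted p in the text comes from limma, by this fit unless another setting is given. The fit was also run on simulated data, with noise drawn independently for each gene and array. That noise held no array groups and no sex differences, so the simulation did not test their part. If arrays of a group share an animal or extract, which the labels leave unsaid, the p-values reflect technical spread only. The number of arrays limits the precision.

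Array groups came from clustering probe set differences within 2997 genes, and sex from Xist and Y-linked signal. Named genes were pocket protein genes, called genes, up to 10 per direction by smallest p without overlap at a mean log2 level of 8, and up to 4 members of each list by smallest p. Rdh5 lies under that level and is named because it was called; Mcm6, Cdk1 and genes near Serinc3 were chosen after values were seen. The comparison, its lists and these rules were chosen with earlier results of these data known. Same-numbered replicates did not pair (correlations of deviations 0.22, 0.079 and -0.29). Alternatives were pseudocounts of 1 and 100, no filter and a signal of 200 on 6 arrays, quantile normalization, probe sets of a gene averaged, other eBayes settings, array weights, only the arrays compared, replicate number, array group or sex in the fit, and leaving out each array.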

Additional observations from a re-analysis of the deposited data

Results flagged for a closer look

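Among 34 genes checked, 1 had a p107;p130 DKO array set apart from the rest of its group. Prr15l gave 127 on p107;p130 DKO replicate 1 and 185 to 227 on the other 5 arrays, against 345, 455 and 391.7 in p130 KO. On the log2(signal + 32) scale the gap to the nearest array was 0.635 of the group's range, above Dixon's 95% critical value of 0.625, which chance passes in about 1 in 20 groups. On the signal itself, a scale tried after seeing the data, it was 0.578, below that value. Prr15l differed by -0.98 ± 0.26 (limma, adjusted p = 0.884) with that array included.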

How the results depend on the processing

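Genes called for p107;p130 DKO minus p130 KO, 3 as reported, numbered 1 (Rbl1) with sex as a covariate, 1 with sex and array group, and 1 to 4 when single arrays were left out, with 1 without p130 KO replicate 3. With the replicate number as a block, which does not pair these samples, 2 were called. TKO minus Rb1;p130 DKO, 3 as reported, gave 8 with array weights, 1 among only the arrays compared, 17 with array group, 17 with sex and array group, and 2 to 8 with single arrays left out, of which 5 without Rb1;p130 DKO replicate 7 and 8 without replicate 9. Rb1;p107 DKO minus Rb1 KO, 1 as reported, gave 2 without the filter, 2 with the mean of probe sets, 3 among only the arrays compared and 1 to 3 with single arrays left out, of which 3 without Rb1 KO replicate 1, 2 without Rb1 KO replicate 2 and 2 without Rb1;p107 DKO replicate 5. The interaction, 0 as reported, gave 0 to 1, the 1 being Gpihbp1 without p130 KO replicate 2. The causes were not tested. Recomputed log2 differences numbered 898, for 38 pairs of a gene and a comparison. These included Ccne1, Serinc3, Cdkn1c and Mybl2 in TKO minus Rb1;p130 DKO. Of the 898, 825 kept their direction and side of the threshold, 29 lost a call and 5 gained one. The other 39 turned sign, all of uncalled genes. Rbl2 became 0.047 with the replicate block, 0.064 with array group, 0.050 with sex and 0.34 with both. E2f3 became -0.090 with array weights, -0.016 with the replicate block and -0.0047 with sex. E2f6 became 0.0089 with quantile normalization and 0.0089 with array group. E2f7 became -0.0026 with quantile normalization, -0.11 with the replicate block, -0.10 with array group, -0.022 with sex and -0.18 with both. E2f8 became 0.027 with the mean of probe sets. Tfdp1 became 0.0071 with quantile normalization, 0.0043 with the replicate block, 0.059 with array group and 0.029 with both. With single arrays left out, differences ran from -0.17 to 0.075 for Rb1, -0.31 to 0.051 for Rbl2, -0.064 to 0.14 for E2f3, -0.22 to 0.19 for E2f6, -0.14 to 0.21 for E2f7, -0.21 to 0.14 for E2f8 and -0.041 to 0.014 for Tfdp1. Of 690 list medians, 660 moved by less than 1 SD between arrays.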
